A study of Saccharomyces cerevisiae with 4 samples.

Results

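The genes described here encode the proteins of the large subunit of the mitochondrial ribosome, as far as they are nuclear genes of *Saccharomyces cerevisiae*. The set holds 42 genes of the 6692 in the deposited count table: the *MRPL* genes, *RML2*, *MNP1*, *MRP7*, *MRP20*, *IMG1*, *IMG2*, *MHR1* and *YML6*. Its members were chosen by systematic identifier from the known composition of the subunit, and no threshold on a measured value was applied to a single gene. The group was, however, selected on known results, since the log2 fold changes between the strains in these same libraries were in view when it was proposed. All differences between the strains in its members are therefore a description and not an independent test.

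RNA-seq was performed on polyadenylated RNA from 2 *sis2Δ* cultures and 2 wild-type cultures, named A and B in each strain. The *sis2Δ* strain carries a kanMX deletion of *SIS2* in BY4741, a haploid laboratory strain of mating type a, and the wild type is BY4741 itself. Both were grown to mid-log phase in synthetic complete medium with 2% glucose. The study took its deletion strains from the haploid yeast knockout collection, and whether more than 1 clone was sequenced is not given in the sources used here. Sis2 is a subunit of an enzyme of coenzyme A synthesis and an inhibitor of the Ppz phosphatases, and its deletion was profiled in a study of replicative lifespan. The comparison asks how the transcript levels of the subunit's genes stand in cells without *SIS2*.

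Mitochondria keep a ribosome of their own, which in yeast makes a handful of membrane subunits of the respiratory chain and the ATP synthase, together with a single protein of the small ribosomal subunit. The rRNA of its large subunit comes from the mitochondrial genome, whereas the proteins described here are made in the cytosol and imported. Many of these proteins descend from the bacterial ancestor of the organelle and others were added later. Messages of its genes are a textbook case of targets of Puf3, an RNA-binding protein of the PUF family that recognises a short motif after the coding sequence and acts on the decay and the translation of its targets.

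The counts on genes summed to between 19158777 and 25399379 in the *sis2Δ* libraries and to between 19001619 and 28069619 in the wild-type libraries. Testing was limited to the 5959 genes that reached a normalized abundance (CPM, the reads of a gene scaled to a common library size) of 0.5 in 2 or more libraries, and all 42 members passed. *SIS2* had 6 and 9 counts in the *sis2Δ* libraries, against 3991 and 2208 counts in the wild-type libraries. The members were well covered, with between 496 and 3571 counts per gene in the *sis2Δ* libraries and between 479 and 4557 in the wild-type libraries. No stretch of 100 bases in a member, which is the read length, had a second copy in R64. *MRPL19* overlaps the annotated open reading frame YNL184C on its own strand, so reads in the overlap may not have been assigned to it. *MRPL51* overlaps YPR099C on the other strand, which the strand-specific counting keeps apart. The levels are relative to all transcripts of a library, so that a change of these genes and an opposite change of the total RNA per cell cannot be told apart.

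A feature that the choice of the genes did not use was found in the sequence after the stop codon. The core of the Puf3 motif, TGTANATA on the sense strand, occurred within 200 bases after the stop codon in 42 of the 42 members (100% of them, with an exact 95% binomial interval reaching down to 91.6%), against 14.0% of the other 5631 tested genes of the nuclear genome with an annotated coding sequence. In the 100 bases after the stop codon it occurred in 37 members (88.1%), against 563 of the other 5631 genes. For the positions, cores were listed only where the 30-base stretch around them lay wholly inside the 200 bases. The 42 members held 50 such listed cores, 1 in each of 34 genes and 2 in each of 8 genes. The first listed core began between 13 and 136 bases after the stop codon, with a median of 53. The fifth base of the core was A in 21 cores, T in 18, C in 10 and G in 1. A core with T at that place also spells TATATA, an element of yeast 3′ end formation, so the letters alone do not tell the elements apart. At the second base before the core 35 of the 50 had C, which Puf3 is known to favour. A match is a description of the letters and does not show that the protein binds there.

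The stretches below carry the first listed core of the 8 members that passed the threshold described further on. Those of the 3 members with the least or an opposite difference follow. They are shown because TGTAAATA and TGTATATA occur in both groups. Each is the R64 reference sequence of the gene's own strand, 30 bases long, with the core in capitals.
*MRPL23*, chrXV:612535-612564, plus strand: tcttcaatccaTGTATATAtttatctgtta
*MRPL20*, chrXI:599049-599078, minus strand: aataacaatcgTGTAAATActactctataa
*MRPL7*, chrIV:937564-937593, plus strand: cccattcgtcaTGTAAATAtataaactgta
*MRPL8*, chrX:315714-315743, minus strand: gtgtattccctTGTAAATAtatagatgaca
*MRPL36*, chrII:483850-483879, minus strand: ataaacagcctTGTATATAccgcaacatat
*MRPL40*, chrXVI:224133-224162, plus strand: tatattcgaccTGTATATAtgaaagcataa
*MNP1*, chrVII:375739-375768, plus strand: ggaatatatcaTGTAAATAtgtttaactct
*MRPL15*, chrXII:760291-760320, plus strand: aaaaatttatcTGTAAATAgtgatcgaaat
*YML6*, chrXIII:224307-224336, minus strand: aaaaaataatcTGTAAATAataagcccatg
*MRP20*, chrIV:1278499-1278528, plus strand: cccctcacactTGTATATAcggagcaaact
*MRPL4*, chrXII:1015467-1015496, plus strand: accctctctccTGTAAATAtatatatatat

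At the median of the 42 members the transcript level was modestly lower in *sis2Δ* than in the wild type. The log2 fold change was below 0 for 40 members and above 0 for 2, with a median of -0.26, against a median of -0.0050 over all 5959 tested genes, of which 51.0% were below 0. The range ran from -0.58 for *MRPL23* to 0.12 for *MRPL4*. Of the 42 members, 35 lay below the lower quartile of all tested genes, which was -0.16. Both *sis2Δ* libraries lay below both wild-type libraries for 35 members, and the same held for 28.6% of all tested genes. No member had both *sis2Δ* libraries above both wild-type libraries, which held for 1458 of the 5959 tested genes.

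In the quasi-likelihood fit of edgeR, with p-values adjusted by Benjamini-Hochberg over all tested genes, 8 members had an adjusted p under 0.05 and were lower in *sis2Δ*, where 3.36% of all tested genes were called lower. None was called higher, where 2.72% of all tested genes were. By edgeR 27 members had an unadjusted p under 0.05, all lower and 0 higher. Of the 5959 tested genes 1253 had such a p, in either direction. Limma-voom and DESeq2 also called 0 members higher. Limma-voom called 9 members lower, where 3.31% of all tested genes were, and DESeq2 called 7, where 3.52% were. The count depended on single libraries, on scaling and on the filter, and so did the share of all genes called lower. Without *sis2Δ* A, 1 of the 42 members was called lower (*MRPL8*, 2.38% of them), where 1.68% of all tested genes were. Without wild-type B, 2 members were (*MRPL20* and *MRPL23*), where 1.69% of all genes were, and without wild-type A, 4 members, where 2.43% of all genes were. Without *sis2Δ* B, 9 members were, where 9.68% of all genes were. With libraries scaled by size alone 3 members were called lower (*MRPL20*, *MRPL23* and *MRPL7*), where 2.13% of all genes were, and with no filter beyond 1 count 5 members, where 2.37% of all genes were. Permuting 2 libraries against 2 allows no exact two-sided p smaller than 0.333 for any one gene, so these calls rest on the spread that edgeR shares across genes. They measure the spread between these cultures only.

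**Figure D1:**
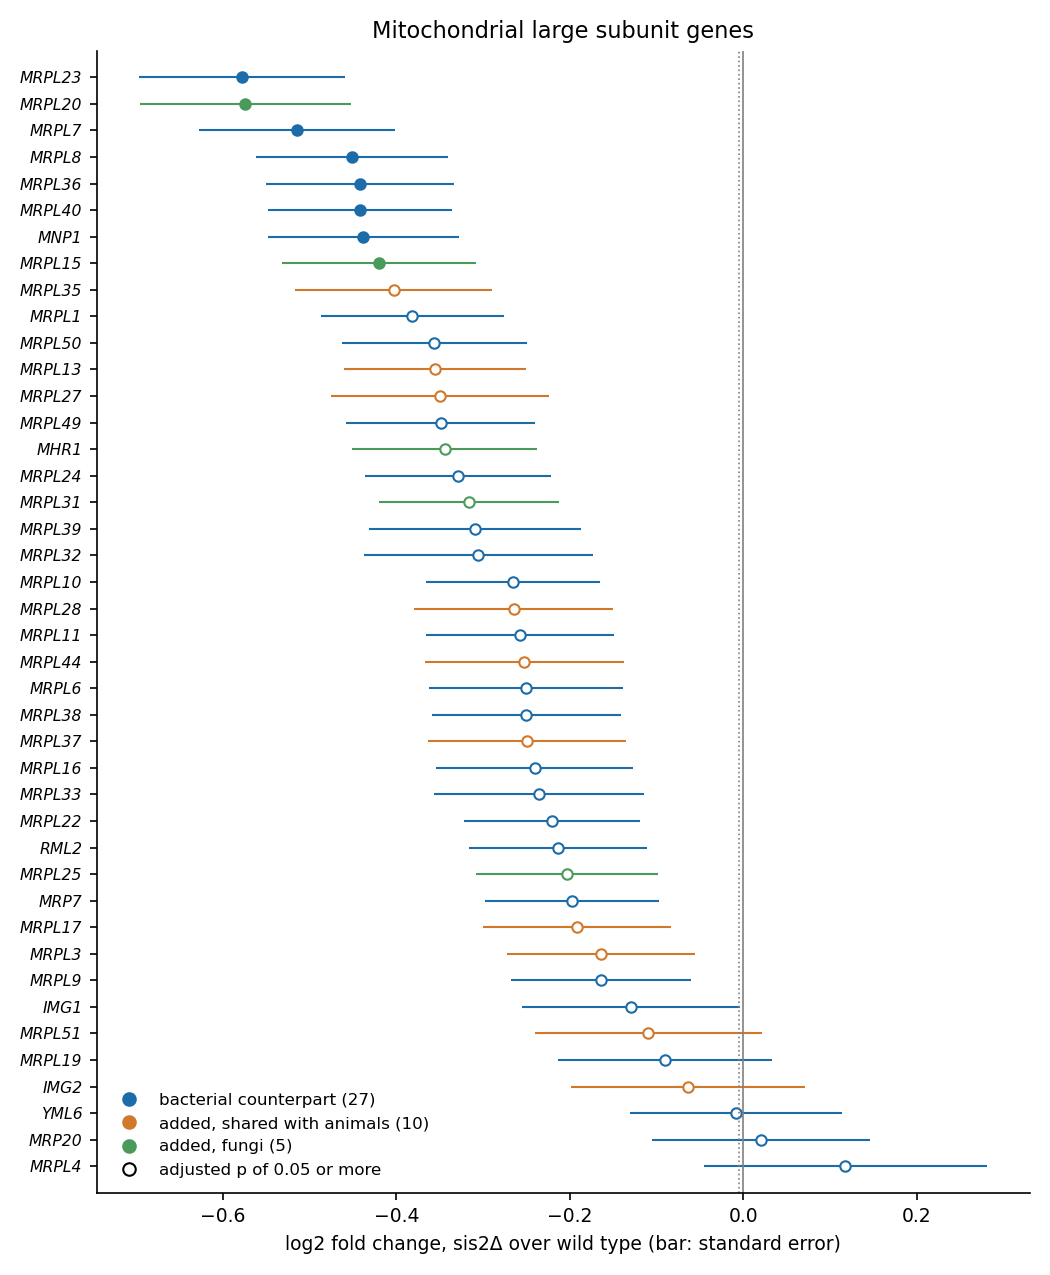
Log2 fold change of each of the 42 members, *sis2Δ* over wild type, with a standard error derived from edgeR's F statistic (2 libraries per strain). Filled points have an adjusted p under 0.05, colours give the origin of the protein and the dotted line is the median of all tested genes. The points run from -0.58 for *MRPL23* to 0.12 for *MRPL4*, and 40 of the 42 lie below 0.

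The direction was the same for each pairing of a *sis2Δ* with a wild-type library. The median log2 ratio over the members was -0.22 for *sis2Δ* A over wild-type A, with 40 members below 0, and -0.31 for *sis2Δ* A over wild-type B, with 36 below 0. It was -0.26 for *sis2Δ* B over wild-type A, with all 42 below 0, and -0.35 for *sis2Δ* B over wild-type B, with 38 below 0. Libraries of the same strain differed less in the median. It was 0.04 for *sis2Δ* A over *sis2Δ* B, with 15 members below 0. For wild-type A over wild-type B it was -0.07, with 31 of the 42 members below 0. In these pairs 52.2% and 50.6% of all tested genes, in that order, were below 0. Over all tested genes these 6 medians lay between -0.028 and -0.00045. Summed over the members, the normalized level was 2489 and 2445 CPM in the *sis2Δ* libraries, against 2940 and 3052 CPM in the wild-type libraries. The subunit's genes took 0.267% and 0.236% of the counts in *sis2Δ* A and B, against 0.285% and 0.303% in wild-type A and B.

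**Figure D2:**
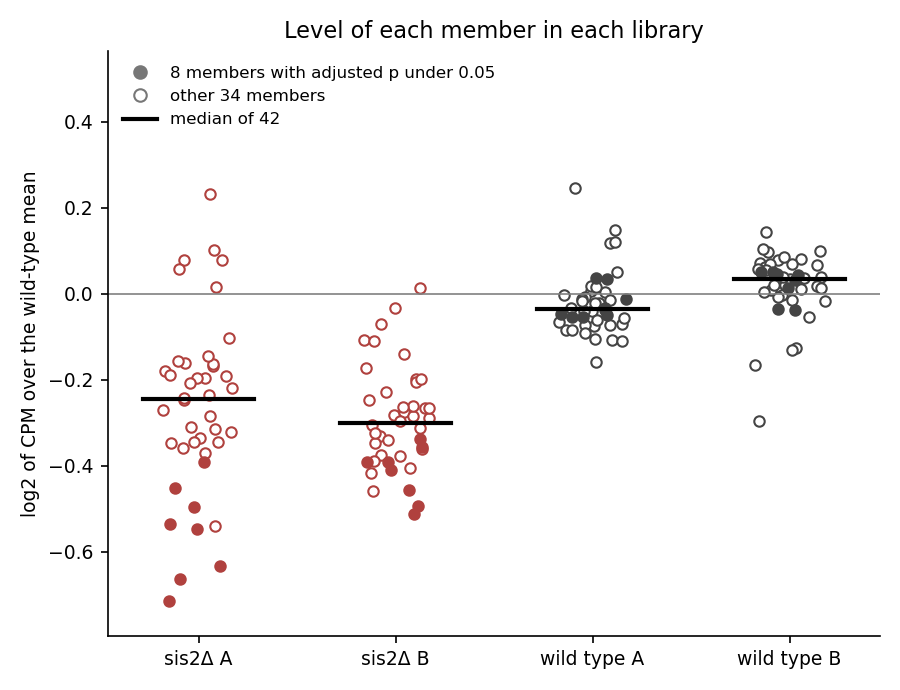
Level of the 42 members in each library, as log2 of TMM-normalized CPM over the gene's wild-type mean; each point is a gene, filled for the 8 with an adjusted p under 0.05, and the bar is the median. Most points of *sis2Δ* A and B lie below those of the wild type, and a few members stand near or above 0 in *sis2Δ* A.

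The largest differences were found in genes of several parts of the subunit. *MRPL23* (YOR150W, chromosome XV from 611999 to 612490), the counterpart of bacterial L13, had 39.4 and 47.2 CPM in the *sis2Δ* libraries, against 64.2 and 65.3 CPM in the wild-type libraries. Both *sis2Δ* libraries lay well below the wild type, and the log2 fold change of -0.58 (standard error 0.12) stood for 67.0% of the wild-type level. Its adjusted p from edgeR's test was 0.0136. *MRPL20* (YKR085C, chromosome XI from 599094 to 599681), a protein known only from fungal mitochondrial ribosomes, had 24.1 and 27.1 CPM in *sis2Δ*, against 39.1 and 37.3 CPM in the wild type. Its log2 fold change was -0.57 (standard error 0.12). That is 67.2% of the wild-type level.

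The central protuberance is the head of the large subunit that touches the small subunit and the bound tRNAs. *MRPL7* (YDR237W, chromosome IV from 936615 to 937493), the counterpart of bacterial L5, had 62.1 and 72.5 CPM in *sis2Δ*, against 92.8 and 99.7 CPM in the wild type, a log2 fold change of -0.51 (standard error 0.11). *MRPL36* (YBR122C, chromosome II from 483970 to 484503), the counterpart of bacterial L31, had 76.5 and 86.5 CPM in *sis2Δ*, against 107 and 114 CPM in the wild type, a log2 fold change of -0.44 (standard error 0.11). The strains did not overlap for either gene. Of the other proteins of this region, *MRPL35*, *MRPL28* and *MRPL17*, the log2 fold changes were -0.40, -0.26 and -0.19, and none passed the threshold. *MRPL35* was close to it, and its adjusted p from edgeR was 0.0576.

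Around the exit of the peptide tunnel, where new membrane proteins leave the ribosome, the members spanned nearly the whole range of the set. *MRPL40* (YPL173W, chromosome XVI from 223143 to 224036), the counterpart of bacterial L24, had 61.0 and 65.6 CPM in *sis2Δ*, against 83.4 and 88.8 CPM in the wild type, a log2 fold change of -0.44 (standard error 0.11). *MRPL8* (YJL063C, chromosome X from 315759 to 316475), the counterpart of L17, had 45.3 and 41.6 CPM in *sis2Δ*, against 60.9 and 57.8 CPM in the wild type, a log2 fold change of -0.45 (standard error 0.11). Both were called lower. *MRPL22*, the counterpart of L22, had 123 and 116 CPM in *sis2Δ*, against 139 and 141 CPM in the wild type, without overlap, but its log2 fold change of -0.22 did not pass the threshold.

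*MRPL4* and *MRP20*, also at the tunnel exit, were the only members with a log2 fold change above 0. *MRPL4* (YLR439W), the counterpart of L29, had 36.6 and 31.4 CPM in *sis2Δ*, against 36.9 and 25.4 CPM in the wild type. *MRP20* (YDR405W), the counterpart of L23 and a contact site of the membrane insertion machinery, had 56.3 and 52.2 CPM in *sis2Δ*, against 59.1 and 47.5 CPM in the wild type. The strains overlapped for both genes, and their log2 fold changes of 0.12 (standard error 0.16) and 0.02 (standard error 0.13) were smaller than the standard error. Without wild-type B the log2 fold change was -0.10 for both genes, and without *sis2Δ* A that of *MRP20* was -0.02. For both, wild-type A was above wild-type B, the reverse of the median member.

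The stalks of the subunit guide translation factors and the leaving tRNA. *MNP1* (YGL068W, chromosome VII from 375087 to 375671), the counterpart of bacterial L7/L12 that recruits the elongation factors, had 67.1 and 77.6 CPM in *sis2Δ*, against 95.9 and 100 CPM in the wild type. It was called lower, at a log2 fold change of -0.44 (standard error 0.11). *MRPL1* (YDR116C), the protein of the stalk on the tRNA exit side, had 53.5 and 51.0 CPM in *sis2Δ*, against 68.2 and 67.9 CPM in the wild type. Its libraries were separated with little spread, and its log2 fold change of -0.38 (standard error 0.11) came just outside the threshold, at an adjusted p from edgeR of 0.0542. *MRPL15* stood just inside it at 0.0450. At the base of the factor-binding stalk, *MRPL11* and *MRPL19* had log2 fold changes of -0.26 and -0.09, neither past the threshold, and *MRPL19* overlapped between the strains.

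Of the members near the peptidyl transferase centre, where peptide bonds are made, none passed the threshold in the values below, and whether they differ from other members was not tested. *RML2* (YEL050C), the counterpart of L2, had 86.0 and 80.2 CPM in *sis2Δ*, against 95.2 and 97.6 CPM in the wild type, a log2 fold change of -0.21 (standard error 0.10). *MRP7* (YNL005C), the counterpart of L27 and the member with the most counts, had 147 and 146 CPM in *sis2Δ*, against 167 and 168 CPM in the wild type, a log2 fold change of -0.20 (standard error 0.10). *MRPL16*, the counterpart of L16, stood at -0.24 on that scale (standard error 0.11). All 3 were lower in both *sis2Δ* libraries than in both wild-type libraries, as were 28.6% of all tested genes. *YML6* (YML025C), the counterpart of L4, had 49.2 and 45.1 CPM in *sis2Δ*, against 51.4 and 43.2 CPM in the wild type. Its log2 fold change was -0.01 (standard error 0.12), with a sign that turned with the scaling.

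The members were divided by origin into 27 with a bacterial counterpart, 10 added to the mitochondrial ribosome and shared with animals, and 5 known from fungi. The log2 fold change had a median of -0.26 in the first class, with 6 called lower and 2 above 0. The median was -0.25 in the second, with none called by edgeR and all 10 below 0 (6 had an unadjusted p under 0.05), and -0.34 in the third, with 2 called lower and all 5 below 0. Over all tested genes 3.36% were called lower and 51.0% had a log2 fold change below 0. An unadjusted p under 0.05 by edgeR was found in 1253 of the 5959, in either direction. The difference between the classes was not tested. Of the fungal class, *MRPL15* (YLR312W-A, chromosome XII from 759480 to 760241), whose protein has a fold related to ribonuclease III, had 38.5 and 40.1 CPM in *sis2Δ*, against 50.7 and 54.5 CPM in the wild type, a log2 fold change of -0.42 (standard error 0.11). *MRPL25*, also known as *AFO1* and a gene whose own deletion lengthens replicative lifespan, had 57.1 and 57.5 CPM in *sis2Δ*, against 66.8 and 65.2 CPM in the wild type. Its libraries were separated, but its log2 fold change of -0.20 (standard error 0.10) did not pass the threshold.

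Some members are also known in connection with the mitochondrial genome. *MHR1* (YDR296W), which also acts in recombination of mitochondrial DNA, had 54.8 and 52.5 CPM in *sis2Δ*, against 66.3 and 70.0 CPM in the wild type, a log2 fold change of -0.34 (standard error 0.11) that did not pass the threshold. *IMG1* and *IMG2* are named for the integrity of that genome, which is lost when they are deleted. *IMG1* had 30.5 and 31.3 CPM in *sis2Δ*, against 36.6 and 30.9 CPM in the wild type, and *sis2Δ* B lay above wild-type B. *IMG2* had 36.0 and 28.3 CPM in *sis2Δ*, against 33.2 and 33.9 CPM in the wild type, with the *sis2Δ* libraries on both sides of the wild type. Neither difference exceeded the spread between replicates. The remaining members, *MRPL3*, *MRPL6*, *MRPL9*, *MRPL10*, *MRPL13*, *MRPL24*, *MRPL27*, *MRPL31*, *MRPL32*, *MRPL37*, *MRPL38*, *MRPL44*, *MRPL49* and *MRPL50*, had log2 fold changes between -0.36 for *MRPL50* and -0.16 for *MRPL3* and *MRPL9*, and none passed the threshold.

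Levels of different members were compared per kilobase of coding sequence. The median over the members was 83.1 and 83.8 CPM per kb in the *sis2Δ* libraries, against 99.7 and 110 CPM per kb in the wild-type libraries. Between the highest and the lowest member the level differed 5.84-fold and 5.46-fold in *sis2Δ* A and B, against 5.28-fold and 8.69-fold in wild-type A and B. Over all libraries the highest were *MRPL51*, *MRPL39* and *MRPL33*, with 196, 173 and 167 CPM per kb on average in *sis2Δ*, against 211, 215 and 197 CPM per kb in the wild type. The lowest were *MRPL4*, *MRPL20* and *YML6*, with 35.4, 43.6 and 54.7 CPM per kb in *sis2Δ*, against 32.4, 64.9 and 54.9 CPM per kb in the wild type. *MRPL4* was the lowest in all 4 libraries. The order at the top was not stable between libraries: *MRPL51* was the highest in *sis2Δ* A and wild-type A, *MRPL33* in *sis2Δ* B and *MRPL39* in wild-type B. In *MRPL51* the level in CPM was 94.2 and 71.3 in *sis2Δ*, against 85.8 and 92.6 in the wild type, so the *sis2Δ* libraries lay on both sides of the wild type. *MRPL39* and *MRPL33* encode the counterparts of L33 and L30 and are among the shortest members, with 213 and 261 bases of coding sequence, and they had log2 fold changes of -0.31 and -0.24 without passing the threshold.

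The members are short genes, with a median coding length of 663 bases against 1236 bases over the tested genes, on 13 of the 16 nuclear chromosomes. Their GC content had a median of 40.3%, against 39.7% over the tested genes. Only *YML6* and *MRPL44* have 2 coding exons in the R64 annotation. Across the 42 members the log2 fold change had a Spearman's rho of 0.05 with coding length, 0.17 with GC content and -0.14 with the level per kilobase. With the distance of the first listed Puf3 core from the stop codon the rho was 0.04. The points share the same 4 libraries and are given as a description.

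**Figure D3:**
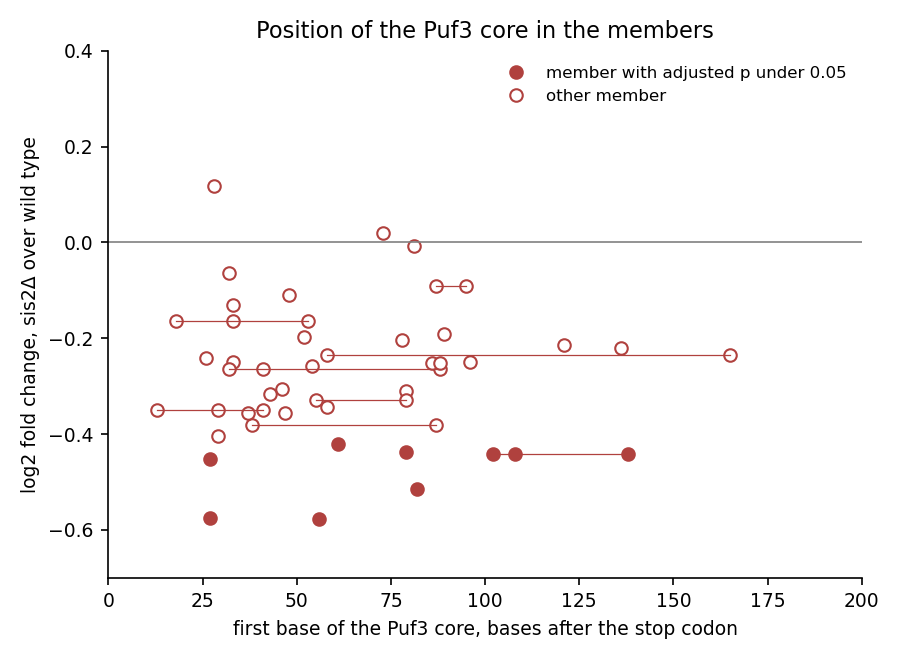
Distance of each of the 50 Puf3 cores from the stop codon against the log2 fold change of its gene, *sis2Δ* over wild type; each point is a core, a line joins the cores of 1 gene, and filled points belong to the 8 members with an adjusted p under 0.05. The listed cores begin from 13 bases after the stop codon and reach log2 fold changes from -0.58 to 0.12. Spearman's rho was 0.04 for the first listed core of each gene.

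The promoters of the members, taken from 250 bases before to 50 bases after the start codon and read on both strands, held the other motifs searched in no larger share than the other genes did. AAAATTTT, the core of a ribosome biogenesis element, occurred in 3 members (7.14%) and in 9.32% of the other genes. GATGAG, the core of the PAC element of the same genes, occurred in 6 members (14.3%) and in 20.2% of the others. CCAAT, which the Hap complex that activates respiratory genes recognises, occurred in 16 members (38.1%) and in 43.8% of the others. The differences in these shares were not tested.

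The Puf3 core was not particular to the large subunit. It occurred after 31 of the 32 genes listed for the small mitochondrial subunit and after 4 of the 81 genes of the large subunit of the cytosolic ribosome. Among the 5549 genes outside all lists of mitochondrial translation, the log2 fold change had a median of -0.06 in the 715 with a core, against 0.0040 in the 4834 without one. Of these genes, 5.73% of those with a core were called lower in *sis2Δ*, against 2.94% of those without one. Of the 715 with a core 6 were called higher, where 162 of all 5959 tested genes (2.72%) were. The lists described below varied. All 14 mitochondrial tRNA synthetases had a core, with a median log2 fold change of -0.16 and 0 called. So did 12 of 16 activators of mitochondrial messages (median -0.08, 0 called). A core followed 7 of 9 translation factors (-0.30) and 6 of 8 assembly factors (-0.21), with 1 called lower in each. The small mitochondrial subunit had a median of -0.28 and the 81 cytosolic genes -0.17. Transcripts of *PUF3* itself had 74.7 and 62.5 CPM in *sis2Δ*, against 87.1 and 64.7 CPM in the wild type, a log2 fold change of -0.15 (standard error 0.14) that was within the spread between replicates. Whether Puf3 has a part in the lower levels was not tested.

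Other lists of genes of mitochondrial translation also had medians below 0. For comparison, 51.0% of all tested genes were below 0 and edgeR called 3.36% lower. Of the 32 genes listed for the small subunit all had a log2 fold change below 0, with a median of -0.28, and 4 were called lower: *RSM26* (-0.50), *MRPS12* (-0.49), *RSM10* (-0.45) and *MRP17* (-0.44). These and the next calls are edgeR's; limma-voom called the same numbers in each list, and DESeq2 called 3 in the small subunit. Of 3 further genes of the large subunit that the set does not hold, *MRX14* was called lower, with 34.2 and 40.2 CPM in *sis2Δ* against 52.0 and 54.3 CPM in the wild type, and *MRP49* and *RTC6* had log2 fold changes of -0.24 and -0.29. Of 8 factors of large subunit assembly, *MAM33* was called lower by edgeR (-0.39, adjusted p = 0.0483), DESeq2 called 0 of them, and the median was -0.21. Of 9 translation factors, the release factor gene *MRF1* was called lower (-0.49), and the median was -0.30. Of 14 mitochondrial tRNA synthetases 0 were called by edgeR, limma-voom or DESeq2, with a median of -0.16 and 3 with an unadjusted p under 0.05 by each tool. Of 16 activators of single mitochondrial messages 0 were called by any of the tools, with a median of -0.08. At an unadjusted p under 0.05 there were 3, 3 and 1 by edgeR, limma-voom and DESeq2. By edgeR 1253 of all 5959 tested genes had such a p, in either direction. The edgeR counts of the synthetases and the activators were close to that share. Across all these lists of mitochondrial translation no gene was called higher by any of the tools, and 0 had an unadjusted p under 0.05 in that direction.

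Genes of the large subunit of the cytosolic ribosome had a median closer to 0 than those of both mitochondrial subunits. Of 81 such genes, 74 had a log2 fold change below 0, with a median of -0.17. None of them, 0 of 81, was called by edgeR, limma-voom or DESeq2. At an unadjusted p under 0.05 there were 1, 5 and 10 of them by these tools, all lower. Both *sis2Δ* libraries lay below both wild-type libraries in 30.9% of these genes, against 83.3% of the members and 28.6% of all tested genes. Many genes of the cytosolic ribosome exist as near-identical pairs whose reads may be divided unevenly, so their single values are uncertain. Some also had larger standard errors, 0.20 in *RPL19B* and 0.21 in *RPL32*, against at most 0.16 among the members (*MRPL4*). The lowest of the 81 values, -0.47 in *RPL10*, was not called, whereas all members at -0.42 or below were. The lack of calls therefore does not mean that every difference was smaller than in the called members. The 10 regulators listed (*PUF3*, *HAP1* to *HAP5*, *SFP1*, *STB3*, *IFH1* and *FHL1*) had a median of 0.0043, and 0 were called by any of the tools. The largest value among them was that of *IFH1*, an activator of cytosolic ribosomal protein genes, with 0.33 (adjusted p = 0.105 from edgeR's test), the only one with an unadjusted p under 0.05. The differences between these lists were not tested.

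**Figure D4:**
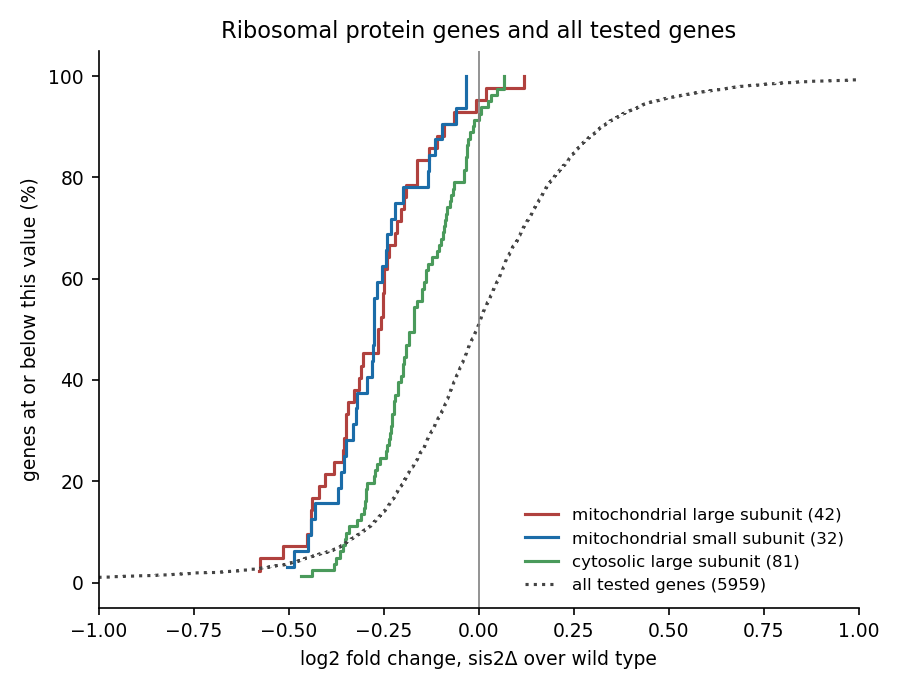
Cumulative share of genes by log2 fold change, *sis2Δ* over wild type, for the 42 members, 32 genes of the mitochondrial small subunit, 81 genes of the cytosolic large subunit and all 5959 tested genes; the horizontal axis is cut at -1 and 1. The curves of both mitochondrial subunits run together with medians of -0.26 and -0.28, the cytosolic large subunit lies closer to 0 with -0.17, and all tested genes are centred near 0.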

How the data were processed

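Per the labels and the study's methods, reads were trimmed by the authors (Cutadapt 3.7), aligned to the R64 genome (RNA STAR 2.7.8a) and summarized per gene as reverse-stranded (featureCounts 2.0.1). The deposited counts were used without change. The authors' own limma-voom table (fold changes and p-values) was not used. The last letter of 1 *sis2Δ* title is a Greek letter, read as B.

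Counts were fitted in R 4.3.3 with edgeR 4.0.16 (quasi-likelihood test, TMM scaling, Benjamini-Hochberg adjustment at 0.05) on genes reaching 0.5 CPM in 2 or more libraries. Limma 3.58.1, DESeq2 1.42.0, other scalings and filters, a replicate block and leaving out each library were the alternatives. The standard errors given were derived from edgeR's test. Each is the absolute log2 fold change divided by the square root of the F statistic, and is no separate estimate of spread. The fits were tested on simulated data. Chi-square divided by its degrees of freedom was 60.3 between the *sis2Δ* replicates and 20.4 between the wild-type replicates, so each counted as a sample. The paper calls the cultures independent. Intervals cover counting error only. Sequences, coordinates and coding lengths come from RefSeq's R64 assembly, which held 6008 of the 6692 identifiers.

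The members and lists were chosen with earlier results of these data known. Values are given for members past the threshold, the 6 highest and 6 lowest log2 fold changes, the 3 highest and 3 lowest levels per kilobase, and members named for their role; other members with values were added after their values were seen.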

Additional observations from a re-analysis of the deposited data

How the results depend on the processing

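The number of members called lower in *sis2Δ* was 8 with edgeR's test and TMM scaling, between 7 and 9 with limma-voom, DESeq2, median-ratio factors, the legacy fit or at least 10 counts in every library, 3 with library size alone, 5 with no filter beyond 1 count and 17 with a replicate block. With the block, which took the shared letters as pairs, 380 genes of all were called lower against 200 without it; the deviations of same-lettered libraries had a correlation of 0.07, and nothing in the labels ties the letters across strains. All 8 members called in the first fit were called with the block too. With each library left out the number lay between 1 and 9, while between 100 and 577 of all genes (1.68% to 9.68%) were called lower, with the lone library of a strain assumed to vary like the other strain. No alternative called a member higher. The median of the members was -0.26, with -0.21 under library size alone, and between -0.33 and -0.19 with a library left out. With library size alone the median of all genes was 0.0486, and 127 genes of all were called lower and 188 higher, against 200 and 162 with TMM.

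Among these named members signs turned only in 7 with log2 fold changes near 0. *YML6* was at 0.00771 with DESeq2, 0.00701 with median-ratio factors, 0.0501 with library size alone and 0.00964 with no filter beyond 1 count. With a library left out the ranges were -0.103 to 0.125 for *YML6* (0.0532 without *sis2Δ* B), -0.0962 to 0.422 for *MRPL4*, -0.103 to 0.189 for *MRP20* (-0.0242 without *sis2Δ* A), -0.222 to 0.000737 for *IMG1*, -0.234 to 0.102 for *IMG2*, -0.189 to 0.0137 for *MRPL19* and -0.311 to 0.0788 for *MRPL51*. Over the 22 members named with values by rule and all alternatives, 221 values kept direction and side of the threshold, 26 kept only their direction and lost the call, 4 gained a call and 13 changed sign. The cause was not tested. In a window of 100 bases 88.1% of the members held TGTANATA.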
